A study of Mus musculus with 6 samples.

Results

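Glycolysis and the response to low oxygen were followed in mouse macrophages through 32 genes: the glucose transporter Slc2a1, the enzymes that turn glucose into pyruvate and lactate, the lactate transporters, the oxygen-sensing genes Hif1a, Egln1 and Egln3, and a group of genes known to be induced by low oxygen. The genes were listed by symbol and matched to the rows of the count table through their Ensembl identifiers. All 32 were found among the 54446 gene rows, and all passed the minimum of 10 counts in 1 library in every comparison. Aldoa is also the symbol of a second row, which held 4 to 41 counts per library and was not used. Bone marrow-derived macrophages (BMDMs) of male BALB/c mice aged 6 to 8 weeks had been grown for 7 days with 20% L929-conditioned medium, and RNA was sequenced from 6 conditions with 1 library each. M0 cells received no polarizing agent. M1 cells received IFN-γ at 20 ng/mL together with LPS at 50 ng/mL, and M2 cells received 20 ng/mL of IL4, each for 24 hours. Each state was sequenced as a control with DMSO and with regorafenib, an oral inhibitor of several receptor and intracellular kinases, given at 1 µM from 1 hour before polarization. With 1 library per condition, no difference between 2 libraries has a replicate check. The 95% intervals given with the ratios are conditional exact binomial intervals and cover counting error only.

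Glycolysis splits glucose into pyruvate in the cytosol, and lactate dehydrogenase turns pyruvate into lactate when it is not sent to the mitochondria. The hypoxia-inducible factor HIF-1 is a transcription factor whose α subunit, the product of Hif1a, is marked for destruction by the prolyl hydroxylases of the Egln genes when oxygen is present. HIF-1 activates most glycolytic genes, and in macrophages LPS is known to stabilize it and to raise glycolysis also where oxygen is not limiting.

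The libraries held between 25359309 and 34898342 counts, so that even a member with few counts, such as Egln3 with 11 to 64 counts in the M0 and M2 libraries, was measured in every library. All 8 macrophage markers, among them Adgre1, Csf1r and Cd68, were above 3 counts in every library. The M1 markers summed to 20237 CPM (counts scaled to library size, with trimmed mean of M values or TMM factors) in the M1 control. They summed to 15502 CPM in M1 with regorafenib and to at most 70.7 CPM in the other states. The M2 markers summed to 1299 CPM in the M2 control, 655 CPM in M2 with regorafenib and at most 34.1 CPM in the other states. In M2, 4 of the 6 M2 markers were at least 2-fold higher with regorafenib, beside 5.23% of all genes, and 1 was lower, beside 4.11%. The macrophage markers summed to 30918 and 48726 CPM in the control and regorafenib libraries of M0, 31583 and 34053 CPM in M1, and 21869 and 33539 CPM in M2. Their median log2 ratios of regorafenib to control were 0.27, 0.04 and 0.03. The 6 lymphocyte markers summed to 0 to 3 counts per library. Ly6g, the defining neutrophil marker, was at 0 in every library, although Mpo, which early myeloid cells also express, held 2064 to 5124 counts. Of the other neutrophil markers, S100a8 was at 123 counts in the M0 control and 1804 in the M1 control, and Camp at 0 and 108, so 2 of the 3 measured markers were higher in M1. Elane and S100a9 were between 0 and 11 counts. Fibroblast markers summed to 10.1 CPM in the M0 control and 24.4 CPM in the M1 control. At 2-fold, 2 of the 4 that reached 10 counts were higher, beside 16.7% of all genes, and 0 were lower, beside 18.7%. Dendritic cell markers summed to 0.488 and 1.86 CPM, with 1 of 2 higher and 0 lower. The part of these markers in the M1 differences was not tested. Since these are bulk libraries, fewer cells expressing a gene and less RNA per cell cannot be told apart.

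The largest differences among the 32 genes were those between M1 and the other states. The genes held 1.4702% of all counts in the M0 control (exact binomial 95% interval 1.4657% to 1.4747%), 3.2981% in the M1 control (3.2919% to 3.3044%) and 1.152% in the M2 control (1.1485% to 1.1556%). With regorafenib the share was 0.7522% in M0, 2.8224% in M1 and 0.798% in M2, below the control of the same state each time. Both M1 libraries stood above the other 4 libraries for 29 of the 32 genes, against 28.2% of the 14917 genes that reached 10 counts in any library. Both stood below the other 4 for Pfkfb4 and Ldhb, a pattern that 32.2% of all genes had, and Pfkm showed neither order. Values scaled to total counts gave 27 genes above and 3 below, beside 17.1% and 51.1% of all genes.

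**Figure D1:**
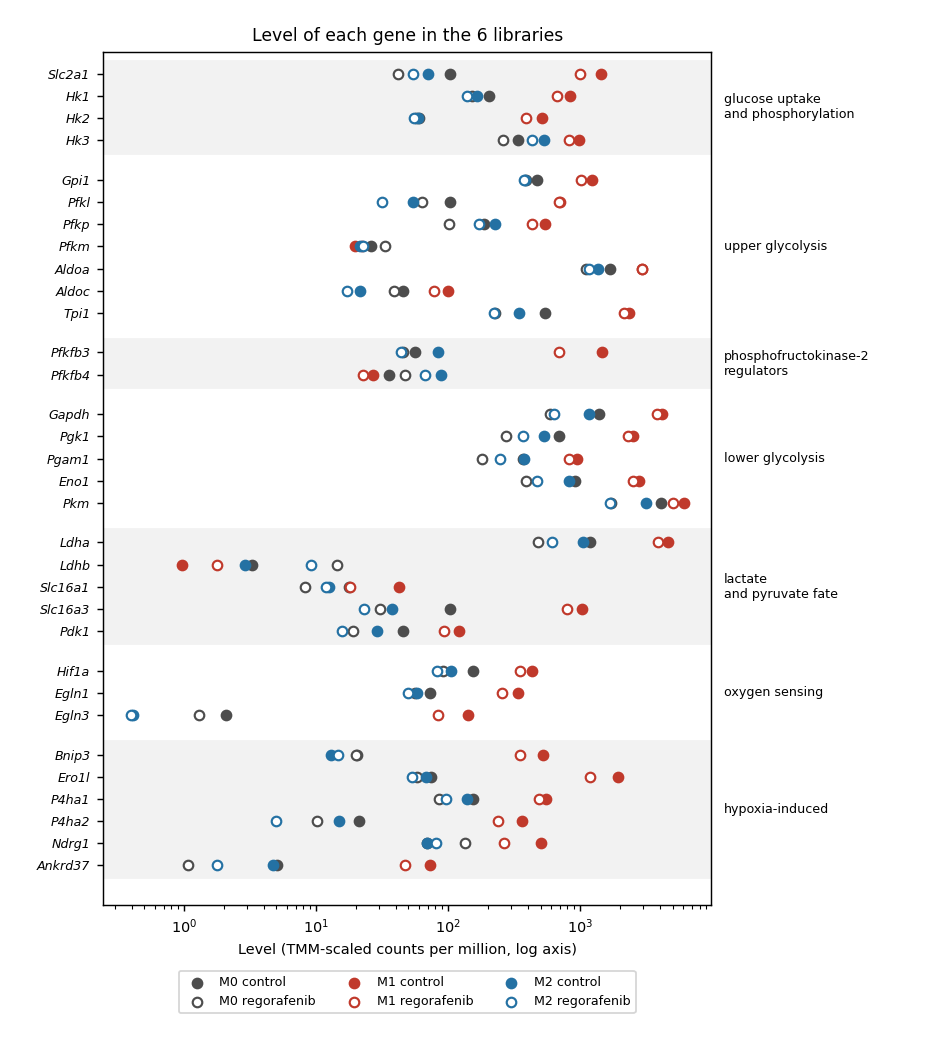
Level of each of the 32 genes in the 6 libraries, in TMM-scaled CPM on a log axis, with 1 point per library. Filled points are control libraries and open points regorafenib libraries (grey M0, red M1, blue M2). The red points lie to the right of all others for 29 genes, and to the left for Pfkfb4 and Ldhb.

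In the M1 control, 27 of the 32 genes were at least 2-fold higher than in the M0 control with an interval that excluded 0, beside 16.7% of the 14168 genes compared. Only Ldhb was lower by the same rule, beside 18.7% of all genes. The median log2 ratio was 1.85 over the 32 genes and −0.05 over all genes. In an additive fit over the 6 libraries, with terms for state and for regorafenib (edgeR quasi-likelihood test with Benjamini-Hochberg adjustment at 0.05), 29 of the 32 genes rose with M1 and Ldhb fell, beside 18.5% of 14110 genes that rose and 18.2% that fell. The residual of this fit has 2 degrees of freedom and holds both differences between the states in their response to regorafenib and variation between libraries, which cannot be told apart with 1 library per condition. Scaling to total counts moved the median over all genes to −0.49 and that over the 32 genes to 1.41. It left 22 of the 32 genes higher and 1 lower, beside 11.8% and 28.4% of all genes, and changed the share of higher calls among all genes called from 47.2% to 29.4%.

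RNA of the genes of glucose uptake and phosphorylation rose with M1 as a group, as all 4 members passed the fit, beside 18.5% of all genes. Slc2a1 (ENSMUSG00000028645.11, chromosome 4, 119108711 to 119137983 on GRCm38) encodes GLUT1, the main glucose transporter of activated macrophages. Its level was 104 CPM in the M0 control, 41.9 CPM in M0 with regorafenib, 1439 CPM in the M1 control, 999 CPM in M1 with regorafenib, 70.1 CPM in the M2 control and 54.2 CPM in M2 with regorafenib. Both M1 libraries were far above the rest, and in each state the regorafenib library was the lower of the pair. The log2 ratio of the M1 to the M0 control was 3.79 (interval 3.74 to 3.84), and the M1 term of the fit was 4.21 (SE 0.307, adjusted p = 0.000729, edgeR). Hexokinases trap glucose in the cell by phosphorylating it. Hk2, the inducible form that binds mitochondria, stood at 54.7 to 59.9 CPM in the M0 and M2 libraries and at 517 and 385 CPM in the control and regorafenib libraries of M1. Hk1 (log2 ratio 2.05) and Hk3 (1.51), the form typical of myeloid cells, were also higher in the M1 control.

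The upper steps of glycolysis were higher in M1 for 5 of 7 genes at the 2-fold rule, beside 16.7% of all genes, and 6 of 7 rose in the additive fit, beside 18.5%. Pfkl, the liver-type subunit of phosphofructokinase, the committed step of the pathway, showed the largest difference (log2 ratio 2.76, interval 2.7 to 2.81). It was at 701 and 696 CPM in the M1 control and regorafenib libraries and between 31.2 and 104 CPM elsewhere. Tpi1 (2.12), Pfkp (1.54), Gpi1 (1.38) and Aldoc (1.14) followed. Aldoa, the main aldolase, was at 0.79 and so under 2-fold between the control libraries, though its M1 term was 1.15 (adjusted p = 0.0145, edgeR). Pfkm, the muscle-type phosphofructokinase subunit, had a log2 ratio of −0.40 and an M1 term that missed the threshold (−0.44, adjusted p = 0.118, edgeR), with 508 to 1092 counts per library.

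Pfkfb3 and Pfkfb4, which make and remove the sugar bisphosphate that activates phosphofructokinase, went apart. Pfkfb3 (ENSMUSG00000026773.19, chromosome 2, 11471433 to 11554077), whose product strongly favours activation of glycolysis, was at 55.8 CPM in the M0 control, 45.7 CPM with regorafenib, 1467 CPM in the M1 control, 687 CPM with regorafenib, 84.3 CPM in the M2 control and 44.2 CPM with regorafenib. The M1 control was thus 4.72 above the M0 control on the log2 scale (interval 4.65 to 4.79). Pfkfb4 was at 35.3 CPM in the M0 control and 26.7 CPM in the M1 control (log2 ratio −0.40), and was highest in the M2 control, at 87.5 CPM. Its M1 term missed the threshold (−0.69, adjusted p = 0.0703, edgeR) but passed it when every gene with a count was kept.

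The lower steps, from Gapdh to pyruvate kinase, rose in all 5 genes of the additive fit, beside 18.5% of all genes, with M1 terms between 1.14 and 2.50. Pgk1, phosphoglycerate kinase, was at 693 and 2519 CPM in the M0 and M1 controls (log2 ratio 1.86). Eno1 (1.61), Gapdh (1.59) and Pgam1 (1.35) were similar, and the 5 genes lay within 0.58 to 1.86. Pkm, which encodes the pyruvate kinase of macrophages, had the smallest ratio of the group (0.58, interval 0.57 to 0.59) but the highest level of all members per kilobase of exon in the M0 control, at 814 CPM per kilobase, against 1214 in the M1 control. Levels of several of these genes are uncertain between genes, because 51.7% of the 100-base words of Pgk1 transcripts, 33.9% of those of Pgam1, 20.9% of those of Gapdh and 20.4% of those of Eno1 also occur in other annotated genes.

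The lactate and pyruvate genes split around Ldhb. Ldha (ENSMUSG00000063229.15, chromosome 7, 46841475 to 46855627), whose product favours lactate formation, was at 1177 CPM in the M0 control, 475 CPM with regorafenib, 4580.2 CPM in the M1 control, 3851 CPM with regorafenib, 1055 CPM in the M2 control and 613 CPM with regorafenib. Ldhb (ENSMUSG00000030246.11, chromosome 6, 142490249 to 142507957), whose product favours the use of lactate, was at 3.26 CPM in the M0 control, 14.4 CPM with regorafenib, 0.968 CPM in the M1 control, 1.78 CPM with regorafenib, 2.88 CPM in the M2 control and 9.19 CPM with regorafenib. The order of the libraries was nearly inverted between these isozymes: the M1 libraries were highest for Ldha and lowest for Ldhb, and regorafenib libraries were below their controls for Ldha and above them for Ldhb. The M1 term was 2.55 for Ldha (adjusted p = 0.00279) and −2.37 for Ldhb (adjusted p = 0.00616, edgeR). Ldhb rested on 25 to 475 counts per library.

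Slc16a3, the exporter of lactate from glycolytic cells, was at 102 CPM in the M0 control and 1028 CPM in the M1 control (log2 ratio 3.33). Slc16a1, a lactate transporter that works in both directions, reached 42.7 CPM in the M1 control and lay between 8.22 and 18.1 CPM in the 5 other libraries. Pdk1, the kinase that holds pyruvate back from the mitochondria, was at 45.4 CPM in the M0 control and 119.8 CPM in the M1 control (log2 ratio 1.40).

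The largest M1 ratio of the 32 genes was that of an oxygen-sensing gene. Egln3 (ENSMUSG00000035105.5, chromosome 12, 54178981 to 54203860), a prolyl hydroxylase that is itself induced by HIF, was at 2.08 CPM in the M0 control, 1.3 CPM with regorafenib, 142 CPM in the M1 control, 83.4 CPM with regorafenib, 0.411 CPM in the M2 control and 0.393 CPM with regorafenib. It was expressed at a substantial level in the M1 libraries alone, and its M1 term was the largest of the 32 (6.10, SE 0.245, adjusted p = 0.000225, edgeR). Hif1a itself differed less, with 153 CPM in the M0 control and 432 CPM in the M1 control (log2 ratio 1.5), and Egln1, the main oxygen sensor, with 72.4 and 340.1 CPM (2.23).

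All 6 hypoxia-induced members exceeded 2-fold between the M1 and M0 controls, beside 16.7% of all genes. Ero1l, an oxidase that forms disulfide bonds in the endoplasmic reticulum, went from 74.3 CPM in the M0 control to 1919 CPM in the M1 control (log2 ratio 4.69, interval 4.63 to 4.75). Bnip3, a receptor for the removal of mitochondria, had 20.2 and 520.1 CPM (4.68), and P4ha2, a catalytic subunit of the hydroxylase that matures collagen, 21.3 and 362 CPM (4.09). Ankrd37, an ankyrin repeat protein, had 5.05 and 72.6 CPM (3.85), Ndrg1, a stress-induced gene, 69.5 and 507 CPM (2.87), and P4ha1, an isozyme of P4ha2, 155 and 553 CPM (1.83). For Ankrd37 and Bnip3, 26.4% and 22.3% of exon bases overlap genes on the other strand, and whether the counting used the strand is not stated in the sources used here.

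The promoters of these genes were searched for the core of the hypoxia response element, the letters ACGTG or GCGTG on either strand, in the 250 bases before each RefSeq start. The palindrome CACGTG counts as overlapping matches on both strands, and CACGCGTG likewise. The table of RefSeq starts used here (GRCm38.p6) gave 44 windows for 31 of the 32 genes (Ero1l under its newer name Ero1a), and Ndrg1 was not matched. Of the 31 genes, 20 had ACGTG in a window, against 18.5% of all 27025 genes, and 21 had GCGTG, against 30.9%; per window the shares were 52.3% against 16.6% of 32851 windows for ACGTG and 56.8% against 28.2% for GCGTG. Gpi1 and Tpi1 had neither in any window. The median share of G and C was 62.8% in the windows of the members and 52.4% in all windows. A match of 5 letters is a description and not a binding site. The windows printed here are of the gene with the largest M1 ratio (Egln3), of a hypoxia-induced gene (P4ha2), of an early and a late glycolytic step (Hk2 and Pgk1), and of the lactate dehydrogenase pair that moved in opposite directions. They were taken among windows that overlap no annotated exon. The matched letters are in capitals, and the RefSeq start follows the last base. For Ldha and P4ha2 the window lies inside the annotated gene.
Egln3 (GRCm38.p6, chr12:54203875-54204124, minus strand): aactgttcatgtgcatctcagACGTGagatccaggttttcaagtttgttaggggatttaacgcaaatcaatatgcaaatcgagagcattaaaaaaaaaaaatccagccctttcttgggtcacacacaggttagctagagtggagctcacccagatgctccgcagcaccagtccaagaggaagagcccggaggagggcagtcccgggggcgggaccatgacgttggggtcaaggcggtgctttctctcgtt
P4ha2 (GRCm38.p6, chr11:54100674-54100923, plus strand): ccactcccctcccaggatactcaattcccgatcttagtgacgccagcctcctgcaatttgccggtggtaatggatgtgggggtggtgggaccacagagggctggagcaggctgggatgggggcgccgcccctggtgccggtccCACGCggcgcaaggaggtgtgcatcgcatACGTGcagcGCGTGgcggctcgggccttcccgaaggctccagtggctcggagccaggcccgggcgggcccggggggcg
Hk2 (GRCm38.p6, chr6:82774455-82774704, minus strand): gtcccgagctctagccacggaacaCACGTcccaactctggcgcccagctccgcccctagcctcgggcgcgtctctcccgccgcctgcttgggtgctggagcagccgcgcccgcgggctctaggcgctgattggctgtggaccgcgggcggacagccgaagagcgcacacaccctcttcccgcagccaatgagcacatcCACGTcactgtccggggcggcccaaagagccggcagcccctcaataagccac
Pgk1 (GRCm38.p6, chrX:106186850-106187099, plus strand): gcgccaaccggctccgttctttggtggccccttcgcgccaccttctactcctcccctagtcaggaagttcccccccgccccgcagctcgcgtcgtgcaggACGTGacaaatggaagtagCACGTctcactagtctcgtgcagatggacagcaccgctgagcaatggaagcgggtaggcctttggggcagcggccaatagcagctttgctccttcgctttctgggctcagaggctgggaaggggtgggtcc
Ldha (GRCm38.p6, chr7:46845554-46845803, plus strand): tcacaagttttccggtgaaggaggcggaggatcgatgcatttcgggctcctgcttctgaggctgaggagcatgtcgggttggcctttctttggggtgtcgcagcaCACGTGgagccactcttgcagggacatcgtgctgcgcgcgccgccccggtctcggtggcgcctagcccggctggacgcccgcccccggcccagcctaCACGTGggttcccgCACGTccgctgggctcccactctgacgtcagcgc
Ldhb (GRCm38.p6, chr6:142507958-142508207, minus strand): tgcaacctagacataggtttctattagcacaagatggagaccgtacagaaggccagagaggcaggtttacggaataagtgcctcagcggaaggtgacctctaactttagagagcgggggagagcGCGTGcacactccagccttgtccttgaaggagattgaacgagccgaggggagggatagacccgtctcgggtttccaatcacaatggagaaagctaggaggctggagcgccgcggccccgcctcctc
Ldha had 5 match starts in the window printed, all of ACGTG, of which 4 belong to 2 copies of the palindrome CACGTG, whereas its second window (chr7:46846832-46847081) had 1, a GCGTG, as did the window of Ldhb. Egln3, with the largest M1 ratio, had a single match, 229 bases before its RefSeq start. In these examples the number of matches was not ordered as the M1 ratios.

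**Figure D2:**
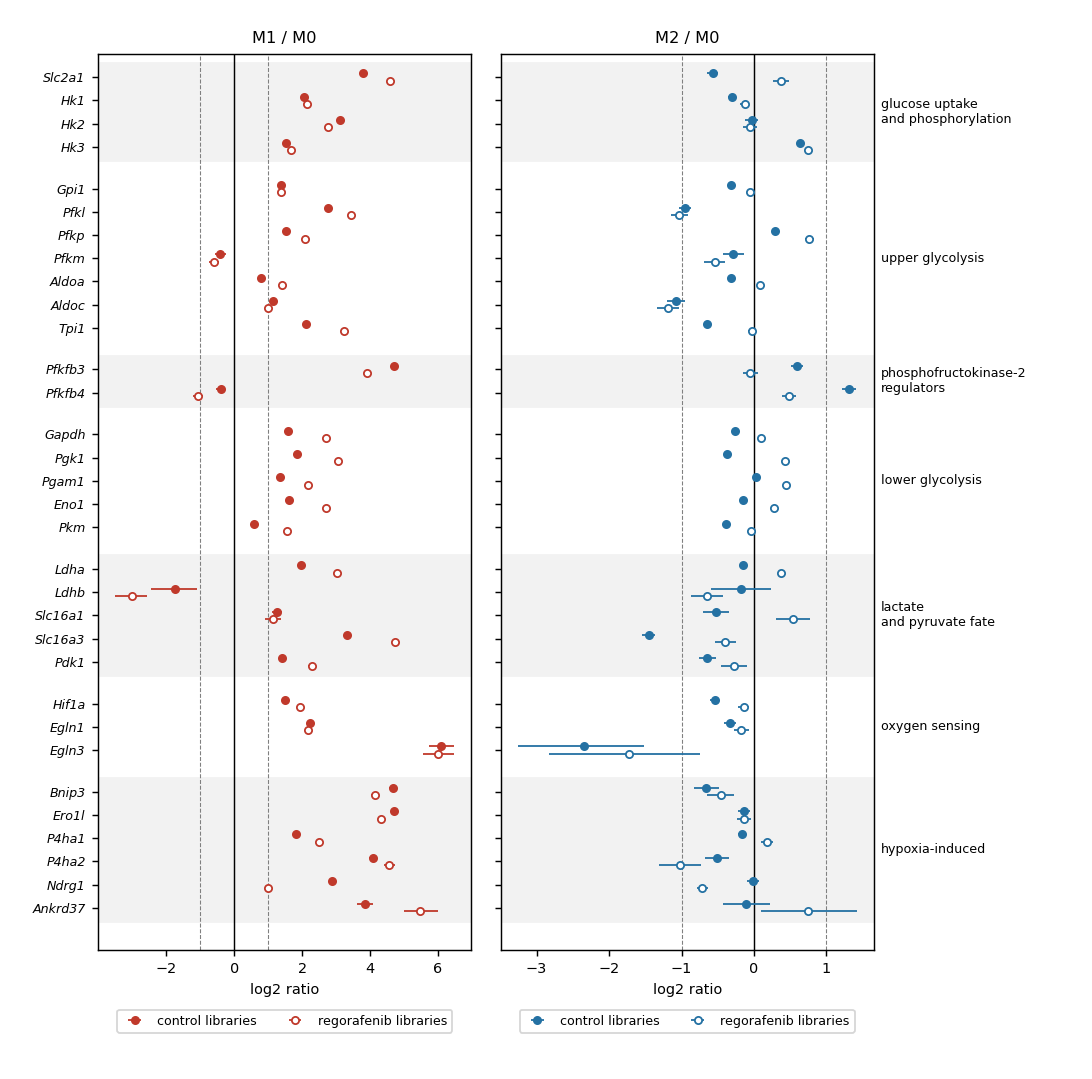
Log2 ratio of M1 to M0 (left) and of M2 to M0 (right) for each gene, with filled points for the control libraries and open points for the regorafenib libraries. Bars are 95% intervals of counting error, dashed lines mark 2-fold, and the scales of the panels differ. The M1 ratios are above 0 for 29 genes and below 0 for Pfkm, Pfkfb4 and Ldhb in both pairs, while most M2 ratios lie within 2-fold.

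Polarization with IL4 left most of the genes within 2-fold of M0. In the M2 control, 1 of the 32 genes was at least 2-fold higher than in the M0 control, beside 3.8% of 13830 genes, and 3 were lower, beside 6.98%. The higher gene was Pfkfb4 (log2 ratio 1.31, interval 1.21 to 1.41), at 35.3 and 87.5 CPM. The lower genes were Egln3 (−2.34, interval −3.26 to −1.51, with 64 and 15 counts), Slc16a3 (−1.45, with 102 and 37.4 CPM) and Aldoc, the brain-type aldolase (−1.08, with 45.4 and 21.5 CPM). Smaller differences leaned to lower values, as 27 of the 32 ratios were below 0 and the median was −0.31, against 0.01 for all genes. Hk3 (0.64), Pfkfb3 (0.60) and Pfkp (0.30) were the other genes whose interval lay above 0.

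In the additive fit, no member passed the threshold for M2 in either direction, beside 0.184% of all genes that rose and 0.0142% that fell (edgeR). At an unadjusted p under 0.05 there were 8 of the 32 genes, 3 with higher and 5 with lower levels, against 9.28% of all genes. The smallest adjusted p was 0.0736, for Egln3 (−2.06, SE 0.276). DESeq2 on the same design called Hk3 higher (adjusted p = 0.0182), beside 1.74% of all genes, and Aldoc, Egln3 and Pfkl lower, beside 1.18%. edgeR with every gene with a count kept called 0 of the 32 genes higher, beside 0.974% of 24938 genes, and Aldoc, Egln3 and Pfkl lower, beside 0.662%, so the M2 calls depend on the test and on the filter.

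Isozyme shares were compared within each library, as counts per kilobase of exon, which needs no scaling between libraries. Hk3 held most of the hexokinase signal everywhere, from 58.8% in the M1 control (exact interval 58.4% to 59.2%) to 83.2% in the M2 control (82.8% to 83.5%). Hk2 made up 19.3% in the M1 control and 7.96% in the M0 control. For phosphofructokinase, Pfkl was the main gene of the M1 libraries, with 69.5% in the control and 73.0% with regorafenib. Pfkp, the platelet-type subunit, was that of the M2 libraries, with 54.1% and 52.6%, and the M0 control was divided among Pfkl (41.8%), Pfkp (37.2%) and Pfkm (20.95%).

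**Figure D3:**
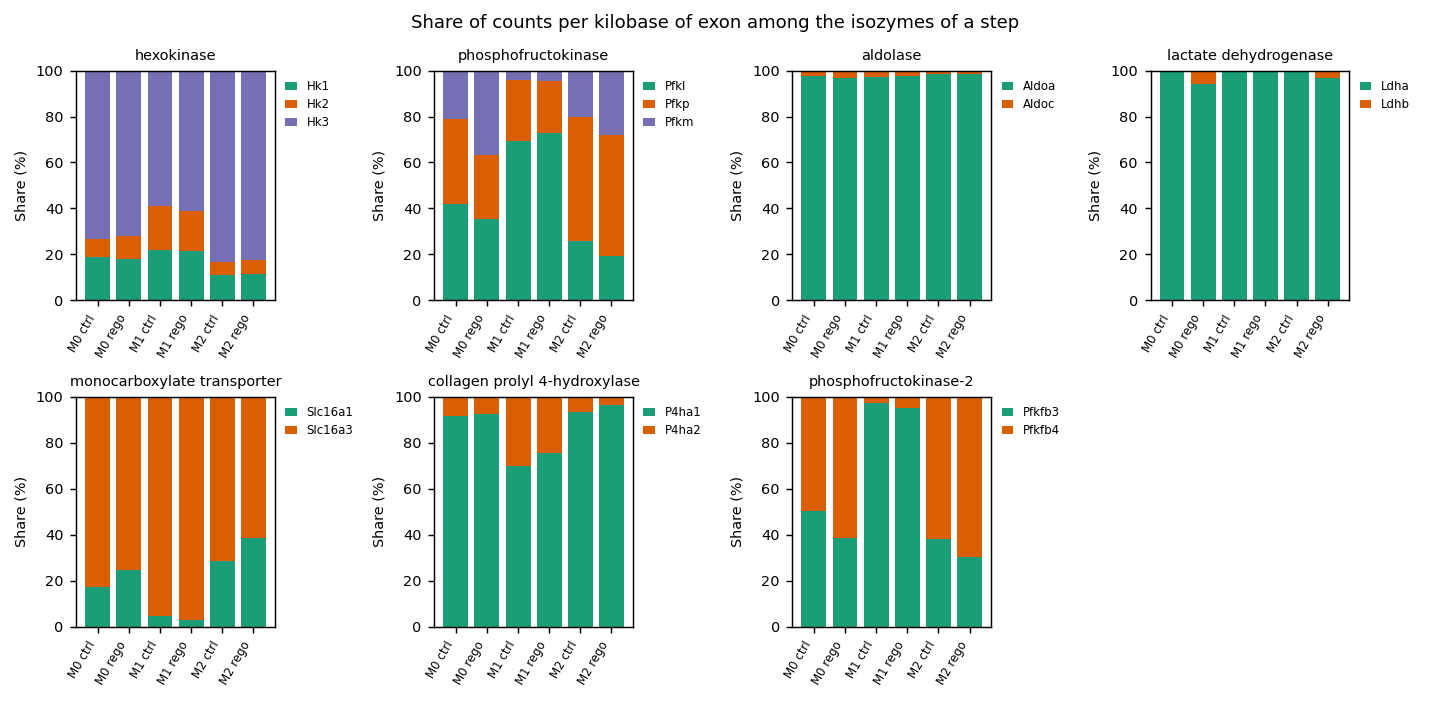
Share of counts per kilobase of exon (percent, stacked to 100) among the isozymes of 7 steps, with 1 bar per library (ctrl, control; rego, regorafenib). Pfkl fills most of the phosphofructokinase bars of M1 and Pfkp those of M2, and Ldhb is visible in the M0 and M2 regorafenib bars alone.

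Pfkfb3 held 97.2% of the signal of its pair in the M1 control and 38.3% in the M2 control, where Pfkfb4 was the larger. Slc16a1 took 4.75% of the lactate transporter signal in the M1 control, 17.3% in the M0 control and 28.5% in the M2 control. P4ha2 made up 8.29% of its pair in the M0 control and 30.2% in the M1 control, or 15.3% and 46.4% per kilobase of the longest transcript. The share of Ldhb in lactate dehydrogenase was 0.580% in the M0 control (exact interval 0.472% to 0.705%) and 6.01% with regorafenib (5.50% to 6.55%), 0.0445% and 0.0976% in M1, and 0.572% and 3.06% in M2. With regorafenib the share of Ldhb was above that of the control in all 3 states. Ldha kept most of the signal in every library, and its lowest share was 93.99%, in M0 with regorafenib.

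The next question was how regorafenib changed these genes in each state. In M0, 13 of the 32 genes were at least 2-fold lower with regorafenib, beside 10.2% of 13964 genes, and Ldhb was higher, beside 8.27%. The share of counts in the 10 most abundant genes was 9.847% in the M0 control and 13.796% with regorafenib, while M1 had 14.389% and 14.314%, and M2 had 9.762% and 12.309%. The mitochondrial share was also higher with regorafenib, at 1.434% against 1.145% in M0, 1.012% against 0.961% in M1, and 1.534% against 1.274% in M2. Mpo was at 80.7 and 155 CPM in M0, 83.0 and 85.6 CPM in M1, and 87.0 and 130 CPM in M2. S100a8 was lower with regorafenib in each state, at 4.0 and 2.76 CPM in M0, 69.8 and 20.3 CPM in M1, and 1.86 and 1.39 CPM in M2. The part of these differences in the results was not tested. In M1, Slc16a1 and Pfkfb3 were lower, beside 2.47% of 13440 genes, and 0 were higher, beside 1.27%. In M2, P4ha2 and Ankrd37 were lower, beside 4.11% of 13813 genes, and Ldhb was higher, beside 5.23%. The median log2 ratio of the 32 genes was −0.73 in M0, −0.31 in M1 and −0.39 in M2, with 0.00, −0.02 and −0.03 for all genes. Most differences were small but in 1 direction: 26 of the 32 genes were lower with regorafenib in all 3 states, beside 18% of 14917 genes, and Pfkm and Ldhb were higher in all 3, beside 15.5%. With total counts the 26 became 22, beside 14.1%.

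**Figure D4:**
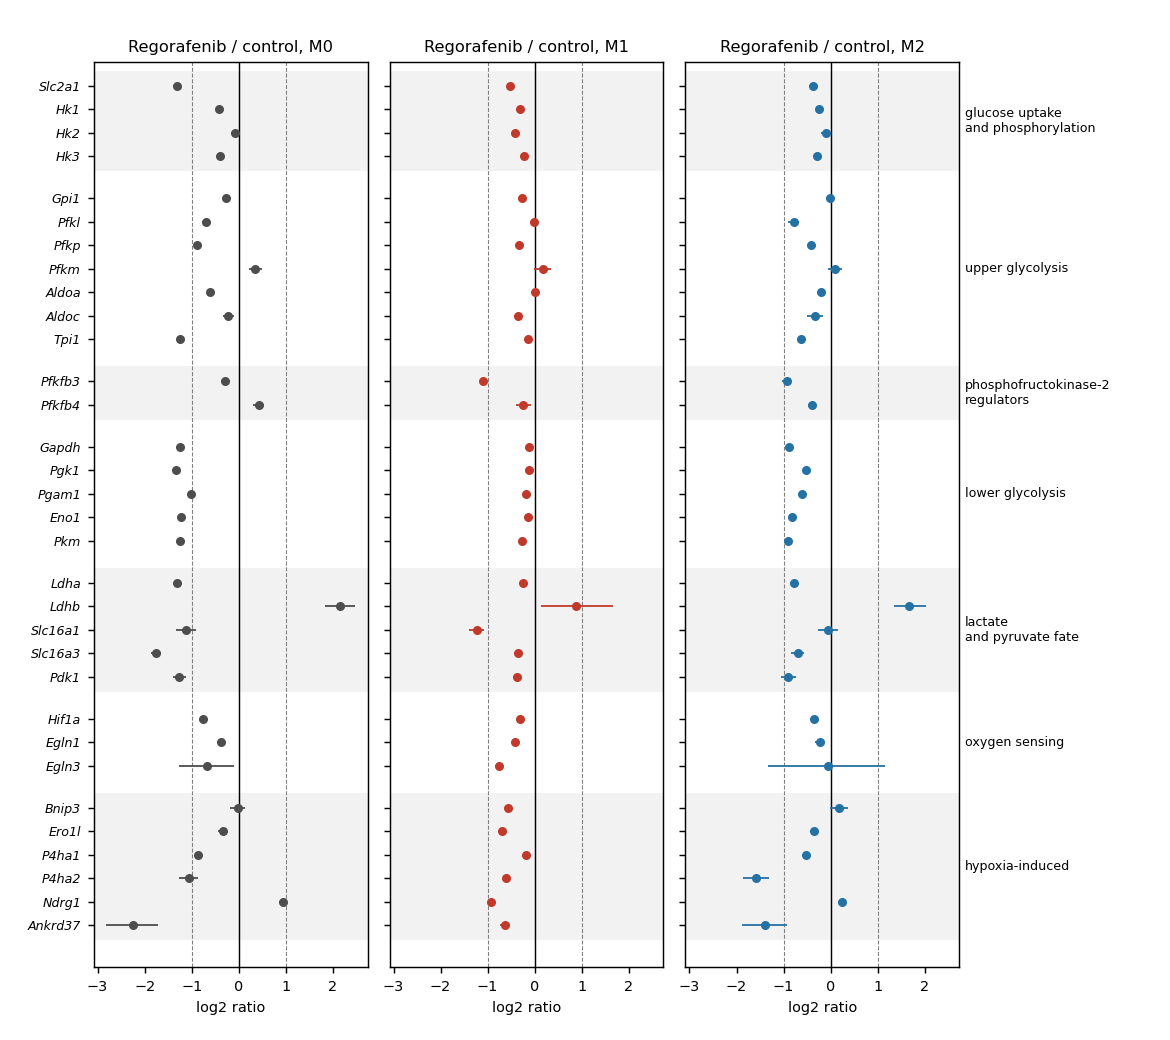
Log2 ratio of regorafenib to control for each gene in M0 (left), M1 (middle) and M2 (right). Points are single pairs of libraries, bars are 95% intervals of counting error, and dashed lines mark 2-fold. The genes of the lower steps lie near or below −1 in M0, just below 0 in M1 and between them in M2, while Ldhb lies to the right of 0 in each panel.

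All 5 genes of the lower steps of glycolysis were below their controls in each state. They were at least 2-fold lower in M0, beside 10.2% of all genes, with log2 ratios between −1.33 (Pgk1) and −1.02 (Pgam1). Their ratios were between −0.26 and −0.12 in M1, and between −0.90 (Pkm) and −0.53 (Pgk1) in M2. Gapdh, which oxidizes glyceraldehyde phosphate, was at 1387 and 585 CPM in the control and regorafenib libraries of M0, 4179 and 3835 CPM in M1, and 1158 and 627 CPM in M2. Pkm was at 4072 and 1710.1 CPM in M0, 6070.1 and 5062 CPM in M1, and 3124 and 1669 CPM in M2. The M0 and M2 regorafenib libraries thus came close to each other for both genes, below every other library. In M0, Tpi1 (−1.25), Ldha (−1.31), Slc2a1 (−1.31), Pdk1 (−1.26) and Slc16a3 (−1.76) were lower by similar or greater amounts. Hexokinases were lower by less, with Hk1 at −0.43, Hk3 at −0.39 and Hk2 at −0.08 with an interval from −0.17 to 0.02.

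Among the lactate genes, Ldhb was the member that went the other way, at 2.15 in M0 (interval 1.83 to 2.47), 0.88 in M1 (0.14 to 1.66) and 1.68 in M2 (1.34 to 2.02), with 25 and 43 counts behind the M1 value. Slc16a3 was at 102 and 30.2 CPM in the control and regorafenib libraries of M0, 1028 and 799 CPM in M1, and 37.4 and 23.0 CPM in M2. Slc16a1 was at 17.9 and 8.22 CPM in M0, 42.7 and 18.1 CPM in M1, and 12.4 and 11.9 CPM in M2, so that it was lower in M0 (−1.12) and M1 (−1.23) and within its interval of 0 in M2 (−0.06). Pdk1 was at −1.26, −0.38 and −0.90 in M0, M1 and M2.

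The log2 ratio of Pfkfb3, unlike those of the lower steps, was nearest 0 in M0. It was −0.29 in M0, −1.09 in M1 (interval −1.12 to −1.07) and −0.93 in M2. Pfkfb4 was at 0.42, −0.24 and −0.40. Aldoa was lower in M0 (−0.61) and M2 (−0.21) and at 0.00 in M1. Pfkl was at −0.70, −0.01 and −0.78, and its M1 value was 0.03 with total counts.

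The oxygen-sensing genes were below their controls in all 3 states, by less than 2-fold. Hif1a was at 153 and 90.7 CPM in the control and regorafenib libraries of M0, 432 and 349.8 CPM in M1, and 105 and 82.1 CPM in M2. Egln3 was at −0.68 in M0, −0.77 in M1 and −0.06 in M2, where 15 and 11 counts left an interval from −1.33 to 1.16.

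The hypoxia-induced members differed in direction in M0 and M2, and all 6 were below their controls in M1. Ankrd37 (ENSMUSG00000050914.16, chromosome 8, 45996902 to 46005707) was at 5.05 and 1.06 CPM in the control and regorafenib libraries of M0, 72.6 and 47.2 CPM in M1, and 4.68 and 1.79 CPM in M2. It was lower each time, by −2.25, −0.62 and −1.39 on the log2 scale, the lowest member ratio in M0. P4ha2 was at 21.3 and 10.1 CPM in M0, 362 and 239 CPM in M1, and 15.0 and 5.0 CPM in M2, with log2 ratios of −1.07, −0.60 and −1.58. Ndrg1 was at 69.5 and 133 CPM in M0, 507 and 265 CPM in M1, and 68.9 and 81.1 CPM in M2. It was therefore higher with regorafenib in M0 (0.93, interval 0.86 to 1.01) and M2 (0.24, 0.15 to 0.32) and lower in M1 (−0.94, −0.98 to −0.90). Bnip3 was at −0.02 in M0, −0.56 in M1 and 0.18 in M2, and Ero1l at −0.35, −0.71 and −0.35.

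The pairs of M0 and M1 share no library, so their ratios can be set side by side. The whole interval of the M0 ratio lay below that of the M1 ratio for 19 genes, among them all of the lower steps, beside 28.1% of 12752 genes. It lay above for 7 genes, beside 27.4%, which were Hk2, Pfkfb3, Pfkfb4, Ldhb, Bnip3, Ero1l and Ndrg1. For M0 and M2 it lay below for 18 genes, beside 17.8% of 13446 genes, and above for Pfkfb3, Pfkfb4, P4ha2 and Ndrg1, beside 19.1%. These intervals carry counting error alone. At 2-fold, Slc16a1 was lower in M0 and M1, and P4ha2 and Ankrd37 in M0 and M2. The share of all genes called lower in 2 states was not computed, so this overlap has no background beside it.

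In the additive fit, no member passed the threshold for regorafenib in either direction, and neither did any other gene, so the shares of all genes were 0% higher and 0% lower (edgeR). At an unadjusted p under 0.05 there were 22 of the 32 genes, 21 lower and Ldhb higher, against 11.6% of all 14110 genes. The smallest adjusted p was 0.302, shared by Ldhb (1.65, SE 0.299) and P4ha2 (−1.05, SE 0.206), and 29 of the 32 coefficients were below 0. DESeq2 on the same design called Ldhb higher (adjusted p = 0.00258) and P4ha2 (0.00434), Ankrd37 (0.0123), Pdk1 (0.0418) and Pfkfb3 (0.0422) lower, beside 0.95% of all genes higher and 1.13% lower. It had 23 of the 32 genes at an unadjusted p under 0.05, beside 11.3% of all genes. edgeR with every gene with a count kept called Ldhb higher and P4ha2, Ankrd37 and Pdk1 lower, beside 0.622% and 0.714% of 24938 genes. Summed fibroblast markers were also higher with regorafenib in each state, at 10.1 and 21.8 CPM in M0, 24.4 and 31.5 CPM in M1, and 9.61 and 18.9 CPM in M2, with 4 or 5 of the 5 markers above 3 counts in each library. In M1 the sum followed Pdgfrb, at 404 and 599 counts, while Dcn was lower, at 100 and 39 counts, and the list had a median log2 ratio of 0.08. Summed dendritic cell markers were at 0.488 and 0.212 CPM in the control and regorafenib libraries of M0, 1.86 and 4.52 CPM in M1 (Xcr1 at 36 and 102 counts), and 0.493 and 2.22 CPM in M2 (Zbtb46 at 15 and 59 counts), with Siglech at 0 in every library and Flt3 at 0 to 3 counts. The part of both lists in the results was not tested.

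Under regorafenib, the polarization ratios were taken between the regorafenib libraries. In M1 with regorafenib, 28 of the 32 genes were at least 2-fold higher than in M0 with regorafenib, beside 15.8% of 14159 genes, and Pfkfb4 and Ldhb were lower, beside 20.2%. The median of the 32 genes was 2.4, beside 1.85 between the controls, and that of all genes was −0.09. The lower steps had ratios of 1.57 to 3.06, beside 0.58 to 1.86 between the controls. Slc2a1 was at 4.58 beside 3.79 and Ankrd37 at 5.47 beside 3.85, whereas Ndrg1 was at 0.99 beside 2.87, Pfkfb3 at 3.91 beside 4.72 and Bnip3 at 4.14 beside 4.68. In M2 with regorafenib, 0 of the 32 genes were at least 2-fold higher than in M0 with regorafenib, beside 3.89% of 13841 genes. Egln3 (−1.73), Aldoc (−1.19), Pfkl (−1.03) and P4ha2 (−1.02) were lower, beside 4.06%. Pfkfb4 was at 0.49 there, beside 1.31 between the controls.

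Other genes of the pathways were read from fixed lists of 79 genes. These lists were chosen with earlier results of these data known, so they are not independent of the pattern in the 32 genes. Hypoxia-induced genes outside the 32 were higher in M1 as well: 18 of 22 were higher by 2-fold or more between the M1 and M0 controls, beside 16.7% of all genes, and 0 were lower, beside 18.7%, with a median log2 ratio of 2.79, and 19 of the 22 rose in the additive fit, beside 18.5% (edgeR). Adm, which encodes the vasodilator adrenomedullin, had 0 counts in the M0 control and 955 in the M1 control, at least 378-fold higher against a floor of 3 counts in the M0 library. Lox, a collagen cross-linking oxidase, went from 42 to 17484 counts (8.95, interval 8.52 to 9.42), and Stc2, a secreted stress glycoprotein, from 2 to 522 counts (8.28, interval 6.42 to 11.33). With regorafenib in M1, 4 of the 22 genes were lower, among them Lox (−1.34), Plod2 (−1.27) and Car12 (−1.1), beside 2.47% of all genes, and 0 were higher, beside 1.27%. In M0, 5 of the 20 genes above the minimum were lower (Ak4, Car12, Plod2, Mif and Fam162a), beside 10.2% of all genes, and 3 were higher, beside 8.27%, namely Lox (1.51, with 42 and 128 counts), Mxi1 (1.13) and Vegfa (1.12). In M2, Car12, Hilpda and Ddit4 were lower, beside 4.11%, and Vegfa was higher (1.95, with 31 and 92 counts), beside 5.23%. Apart from Adm, Lox and Stc2, these genes were named after their values were seen.

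**Figure D5:**
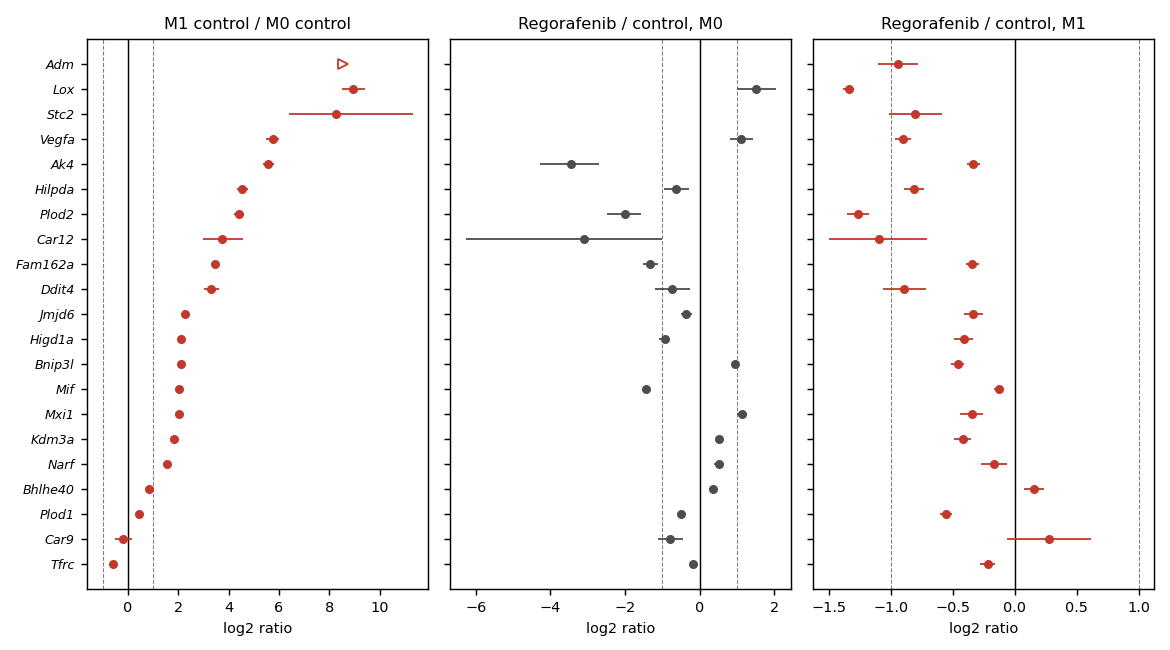
Log2 ratios of other hypoxia-induced genes between the M1 and M0 controls (left) and between regorafenib and control in M0 (middle) and M1 (right), sorted by the left panel. Bars are 95% intervals of counting error, dashed lines mark 2-fold, the open triangle marks the lower bound of Adm against 0 counts, and genes under 10 counts in both libraries are not drawn. The scales of the panels differ, and most genes lie left of 0 in the right panel.

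Genes of glycogen metabolism and gluconeogenesis were read next. Of 10 above the minimum, 5 were higher in the M1 control, beside 16.7% of all genes, and Pck2 was lower (−1.59), beside 18.7%, with Gys1, glycogen synthase, at 30.6 and 580.3 CPM (log2 ratio 4.25), Gbe1, the branching enzyme, at 24.7 and 264 CPM (3.42), Pgm1, which links glucose phosphate to glycogen, at 40.8 and 363 CPM (3.16), and Pygl, glycogen phosphorylase, at 47.5 and 151 CPM (1.67). The remaining higher gene was Pcx (1.31). In the additive fit, Gys1, Gbe1, Pgm1, Pcx and Ugp2 of 11 genes rose with M1, beside 18.5% of all genes, and Pck2 (adjusted p = 0.00246) and Pygb (adjusted p = 0.0373) fell, beside 18.2%, while Pygl did not pass (0.77, adjusted p = 0.243, edgeR). Pcx, Pck2, Pygb and Ugp2 were named after their values were seen. With regorafenib, Gbe1 was lower in M0 (−1.01) and M1 (−1.08), and Pygl was higher in M0 (1.81) and M2 (1.17) and at −0.17 in M1.

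The remaining lists cover branches of the pathway. None of the 8 pentose phosphate genes was 2-fold different in the 5 comparisons. The shares of all genes there ran from 1.27% to 16.7% higher and from 2.47% to 18.7% lower. Taldo1, named here after its values were seen, was the 1 of the 8 that fell with M1 in the additive fit (adjusted p = 0.0142, edgeR), beside 18.2% of all genes. Of the isozymes and transporters outside the 32, 11 were above the minimum. In the M1 control, 3 of them were higher, beside 16.7% of all genes, and 1 was lower, beside 18.7%. Eno2, the neuronal enolase (3.42), and Slc2a6, a glucose transporter of myeloid cells (1.85), were 2 of the higher genes. Slc2a3 was lower (−1.18, with 40.2 and 17.7 CPM). Of 11 genes for mitochondrial pyruvate entry, 2 were lower in the M1 control, beside 18.7% of all genes, and 1 was higher, beside 16.7%. The lower genes were Pdp2 (−1.57) and Pdp1 (−1.09), which switch pyruvate dehydrogenase on. Mpc1, a subunit of the pyruvate carrier, was at 1.0. Pdk2, a kinase that switches pyruvate dehydrogenase off, was higher with regorafenib in M0 (1.64, with 220 and 738 counts). It was 1 of 2 genes among 12 of its list that were higher there, beside 8.27% of all genes. None of the 12 was lower, beside 10.2%. Of 6 other oxygen-sensing genes, 2 were higher in the M1 control, beside 16.7% of all genes, and 1 was lower, beside 18.7%. The lower gene was Epas1, which encodes HIF-2α. It was at 14.4 CPM in the M0 control and 0.503 CPM in the M1 control (−4.84), opposite to Hif1a. Vhl, the ubiquitin ligase subunit that removes HIF (2.24), and Arnt2, a partner subunit (2.46), were higher.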

How the data were processed

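RNA of 6 conditions of mouse BMDMs was sequenced with 1 library each (TruSeq Stranded mRNA, paired reads). The authors trimmed the reads with cutadapt 2.4, aligned them to GRCm38 with STAR 2.7.2a and Gencode M19, and deposited raw counts of reads per gene. Which strand column was taken is not given in the sources used here. Gene names and positions came from Gencode M21 on the same build, which matched 53229 of the 54446 identifiers with their version and 1180 without it, and left 37 unmatched.

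Ratios between 2 libraries were taken on counts scaled by TMM (edgeR 4.0.16), with 0.5 in place of a count of 0, among genes with at least 10 counts in 1 of the 2 libraries. Their 95% intervals are conditional exact binomial intervals, and genes were called at 2-fold with an interval that excluded 0. Such intervals, and those of shares, cover counting error only. Totals ran from 25359309 to 34898342 counts and TMM factors from 0.820 to 1.12. An additive model of state and treatment over the 6 libraries was tested by edgeR quasi-likelihood after filterByExpr, at a Benjamini-Hochberg adjusted p of 0.05, with DESeq2 1.42.0 as an alternative. Nothing states that the libraries came from separate animals, so its p-values measure only the spread between these libraries. The scripts were tested on simulated data. Promoter windows were the 250 bases before each RefSeq start (GRCm38.p6).

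All 32 genes were named. Of the 6 other gene lists, the text names genes called in at least 1 of 5 comparisons and reaching 100 counts in the larger of both libraries, at most 4 per list by size of change, with exceptions stated. A gene of these lists is not reported here by name, though it is in the counts of its list. The members and lists were chosen with earlier results of these data known. Python 3.11.15, scipy 1.17.1 and R 4.3.3 were used.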

Additional observations from a re-analysis of the deposited data

Results flagged for a closer look

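With regorafenib, Pfkfb4 was above its control in M0 (0.42 on the log2 scale) and below it in M1 (−0.24) and M2 (−0.40), each with an interval of counting error that excluded 0. Ndrg1 was above its control in M0 (0.93) and M2 (0.24) and below it in M1 (−0.94). These ratios of opposite direction rest on 1 library per condition, and the difference between states was not tested.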

How the results depend on the processing

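With 1.5-fold in place of 2-fold, regorafenib gave 2 of the 32 genes higher (15.8% of all genes) and 19 lower (18%) in M0, 1 higher (2.92%) and 7 lower (5.16%) in M1 and 12 lower in M2 (9.96%), and M2 against M0 gave 3 higher (6.81%) and 7 lower (12.1%). In the additive fit, DESeq2 called 1 gene higher and 3 lower for M2, and 1 higher and 4 lower for regorafenib. With every gene that had a count, edgeR called 2 genes lower for M1 (11.9% of all genes), 3 lower for M2, and 1 higher and 3 lower for regorafenib. With the M0 and M2 libraries alone, it called 1 gene higher for regorafenib (Ldhb, adjusted p = 0.0435), beside 1.65% of all genes. The cause of these differences was not tested. DESeq2 size factors, total counts, 1 CPM added to both values and no minimum count left each count of 2-fold calls among the 32 genes within 1.5 times its value. The shares of all genes moved further in places. With 1 CPM added, the share higher with regorafenib in M0 was 3.96% in place of 8.27%. With total counts, the share lower in the M1 than in the M0 control was 28.4% in place of 18.7%. Of the ratios of the 32 genes in 5 comparisons, none changed direction while called, and 86 moved beyond their interval with total counts, 14 with DESeq2 size factors and 4 with 1 CPM added. Per kilobase of the longest transcript, the mean shares of Hk1 (26.4%), Aldoa (98.6%) and Aldoc (1.41%) moved by more than the spread over libraries. The shares of Hk1 and P4ha2 were over 1.5 times as high in each library. No paired analysis was possible because each condition had 1 library and the labels give no replicate numbers that link libraries, beyond the additive fit, which compares regorafenib with control within states. For the same reason no replicate could be left out within a condition. A ratio of libraries cannot separate a treatment from a culture, and genes with few counts, such as Egln3 outside M1 and Ldhb in M1, have wide intervals.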
